A study of Drosophila melanogaster with 6 samples.

Results

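The genes described here encode 10 subunits of the Integrator complex: IntS1, IntS2, IntS3, IntS4, IntS6, IntS7, IntS8, IntS9, IntS11 and IntS12. The rule takes genes by symbol and uses no measured value, but the subunits were chosen with earlier results of these data known. All 10 are among the 16451 genes of the deposited tables. For 8 of them the symbol matched directly. IntS7 is listed in the annotation as defl and was matched by its RefSeq synonym. IntS8 carries an older gene ID in the tables and was matched by its transcript ID.

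Integrator is a large nuclear complex that binds RNA polymerase II early in transcription. One of its arms is an endonuclease that cuts nascent RNA, and another carries protein phosphatase 2A, which removes phosphates from the polymerase and its elongation factors. It is best known for making the 3′ ends of the small nuclear RNAs, and in Drosophila cells it also ends transcription prematurely at some protein-coding genes.

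S2 cells, an embryo-derived Drosophila line with hemocyte features, were labelled wild type, and their poly(A) RNA was sequenced. The 3 H2O2 libraries came from cells exposed to 10 mM hydrogen peroxide for 30 min at 25 °C, and the 3 control libraries from cells given the same volume of Schneider's medium. All cells were grown in that medium with 10% serum, streptomycin and penicillin, and the title names the stress-activated kinase p38, acting in the nucleus during oxidative stress, as the subject of the study. The labels do not state whether the libraries represent independent cultures. The p-values therefore reflect differences among these libraries, which may be technical.

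Library totals ran from 35404927 to 42043808 expected counts in the H2O2 group and from 36806499 to 39253171 in controls. All 8 hemocyte markers examined averaged at least 1 TPM in both groups, among them srp, the hemocyte GATA factor gene, at 121 to 127 TPM in H2O2 libraries and 112 to 133 TPM in controls. Their summed level was lower, at 1242 to 1430 TPM in H2O2 libraries and 1691 to 1940 TPM in controls, and its part in the results was not tested. Gene by gene, 6 of the 8 had a log2 fold change, H2O2 over control, below 0, where 45.2% of all tested genes did. For srp and ush it was 0.083 and 0.054. The median of the 8 was −0.13, and 0.031 with a trend on transcript length removed. None of the 8 was called at an adjusted p under 0.05 in edgeR on group alone. With the replicate number as a block, 3 of the 8 were called lower and 0 higher, where 12.8% of all genes were lower and 8.99% higher. With the length trend removed as well, 0 of the 8 were called, where 1.32% of all genes were lower and 6.11% higher. TPM, is a gene's share of all transcripts, with transcript length taken into account. The 4 neuronal markers summed to 5.94 to 7.92 TPM in H2O2 libraries and 7.93 to 10.8 TPM in controls. The 4 muscle markers summed to at most 1.92 TPM in H2O2 libraries and 2.19 TPM in controls. Of 4 germline and ovary markers, vas, nanos and tj averaged below 1 TPM, while bam stood at 94.7 to 132 TPM in H2O2 libraries and 95.9 to 126 TPM in controls.

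Most of the 10 genes have few introns. On the dm6 assembly, IntS1 lies on chromosome 2R at 24037943 to 24044458, IntS3 on 2R at 4235779 to 4242934 and IntS8 on 2R at 16850437 to 16854104. On chromosome X lie IntS2 at 17652761 to 17656818, IntS4 at 8555239 to 8558781 and IntS6 at 5738663 to 5747254. On 3L lie IntS7 at 9723423 to 9726706 and IntS9 at 16103432 to 16105627, and on 3R lie IntS11 at 29745337 to 29747513 and IntS12 at 26863376 to 26864559. In the longest annotated transcript, 8 of the 10 have at most 2 introns, against 45.5% of the 8542 tested protein-coding genes, and IntS12 has none. IntS3 has 10 introns and IntS8 has 6. Only IntS6 has more than 1 annotated transcript, with 5. Transcript lengths in the tables ran from 1184 nt for IntS12 to 6401 nt for IntS1. Their median was 3338 nt, and 9 of the 10 exceeded the median of 1873.3 nt over all tested genes.

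The mRNA of the endonuclease subunit stood far above those of the others in abundance. Protein levels were not measured in these data. IntS11, the catalytic subunit that cuts nascent RNA, averaged 130 ± 23.6 TPM in H2O2 cells and 135 ± 18.0 TPM in controls (SD, n = 3 each). Its partner IntS9, a related protein without catalytic activity, averaged 15.5 ± 1.95 TPM in H2O2 cells and 15.99 ± 1.81 TPM in controls. The ratio of IntS11 to IntS9 in TPM was 8.88, 8.23 and 7.92 in H2O2 replicates 1, 2 and 3, against 8.63, 8.53 and 8.11 in control replicates 1, 2 and 3. The 3 control ratios lay inside the range of the H2O2 ratios. Among tested genes ordered by control TPM, IntS11 stood at the 90th percentile and IntS9 at the 41.4th.

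Cpsf73 and Cpsf100, the cleavage and polyadenylation paralogs of IntS11 and IntS9, were set beside them after their values were seen. Cpsf73 is the endonuclease of mRNA 3′ end formation and Cpsf100 its inactive partner. Their TPM ratio was 1.90, 1.61 and 1.69 in the H2O2 replicates and 1.78, 1.56 and 1.62 in the control replicates. In each of the 6 libraries, the mRNA of the active paralog was the more abundant of its pair, and the ratio was larger for the Integrator pair.

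The other subunits spanned a narrower range of levels. IntS3, known in human cells also as a part of a single-stranded DNA-binding complex, averaged 40.3 ± 3.57 TPM in H2O2 cells and 46.4 ± 1.84 TPM in controls. IntS1, the largest subunit and a scaffold of the complex, averaged 28.5 ± 3.43 TPM in H2O2 cells and 40.5 ± 1.53 TPM in controls. IntS2, which is part of the same scaffold, had 24.1 ± 3.31 TPM in H2O2 cells and 28.9 ± 2.15 TPM in controls. IntS6, a subunit of the phosphatase arm, had 22.1 ± 4.85 TPM in H2O2 cells and 29.6 ± 5.26 TPM in controls (n = 3 each). At the low end, IntS7, another scaffold subunit, had 11.7 ± 1.08 TPM in H2O2 cells and 12.7 ± 0.527 TPM in controls.

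Between these lay IntS12, IntS9, IntS8 and IntS4. IntS12, a small subunit with a PHD finger, averaged 17.7 ± 4.23 TPM in H2O2 cells and 18.4 ± 3.43 TPM in controls. IntS4, which holds the IntS9 and IntS11 pair in the cleavage arm, had 15.7 ± 1.27 TPM in H2O2 cells and 14.5 ± 0.410 TPM in controls. IntS8, of the phosphatase arm, had 13.3 ± 0.922 TPM in H2O2 cells and 14.7 ± 0.418 TPM in controls (n = 3 each). In H2O2 cells, the library ranges of neighbours in the order of levels were apart only for IntS11 over IntS3 and IntS3 over IntS1. In controls they were apart for IntS11 over IntS3, IntS3 over IntS1, IntS1 over IntS6, IntS2 over IntS12 and IntS4 over IntS7. The neighbours IntS6 and IntS2, IntS12 and IntS9, IntS9 and IntS8, and IntS8 and IntS4 overlapped in controls. In every library IntS11 was highest and IntS7 lowest, with a ratio of 9.55 to 12.8 in H2O2 libraries and 9.83 to 11.7 in controls.

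**Figure D1:**
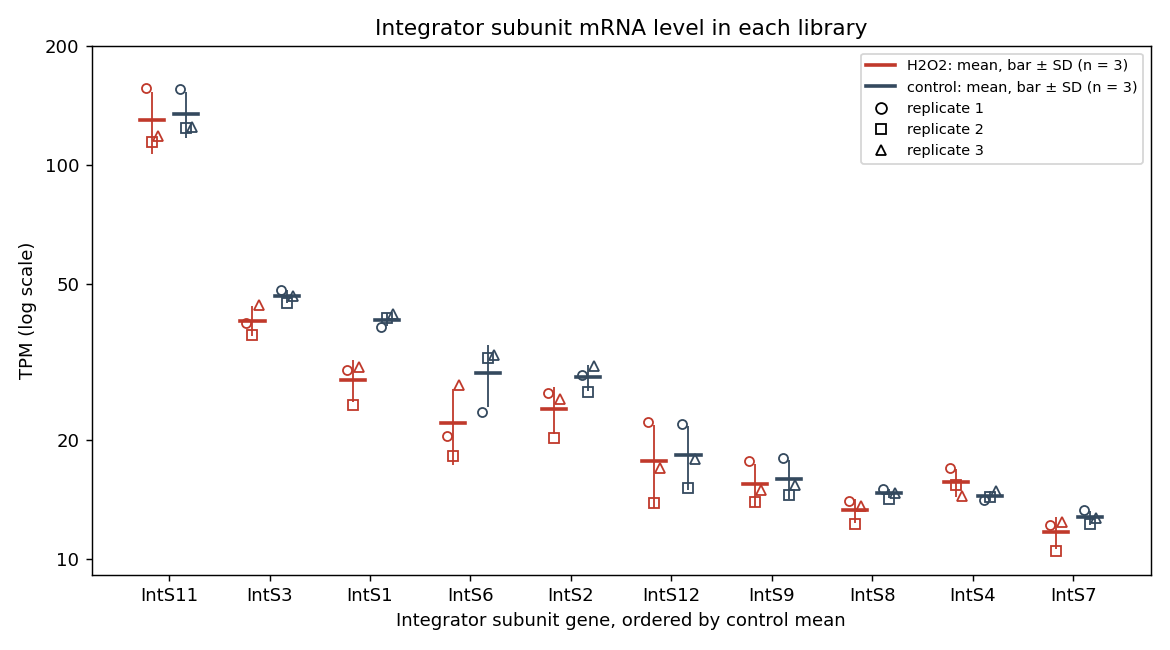
TPM (log scale) of the 10 Integrator subunit genes in each library, with group means and bars of ± SD (n = 3 per group), H2O2 left of control for each gene. IntS11 lies between 114.56 and 157 TPM in all 6 libraries, and no other subunit exceeds 48.3 TPM.

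Differences between H2O2 and control cells were small. All 10 subunits passed the filter on low counts. By edgeR (quasi-likelihood, Benjamini-Hochberg adjustment over 8955 genes), 0 of the 10 subunits were called lower and 0 higher at an adjusted p under 0.05. Over all tested genes, 0.57% were called lower and 2.57% higher. At an unadjusted p under 0.05, 1 subunit, IntS1, was lower and 0 were higher. Of all 8955 tested genes, 646 (7.21%) were lower and 610 higher at that threshold. DESeq2 called 1 subunit lower, IntS1, and 0 higher, against 2.85% and 3.69% of the genes it tested. The log2 fold changes, positive where H2O2 is higher, ran from −0.42 for IntS1 to 0.21 for IntS4, with 6 subunits below 0 and 4 above. Their median was −0.043, against 0.025 over all tested genes, of which 45.2% were below 0. Fewer cells expressing a gene and less of its RNA per cell cannot be told apart in such bulk samples.

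In the fit on group alone, IntS1 had the largest difference of the 10. Its level was 179, 155 and 178 CPM in H2O2 replicates 1, 2 and 3, against 214, 235 and 237 CPM in control replicates 1, 2 and 3. CPM is the count scaled to library size. The groups did not overlap, a pattern found in 10.4% of all tested genes in this direction and 9.98% in the other. Among the 10 subunits, 2 were apart in this direction and 0 in the other. The mean was 171 ± 13.5 CPM in H2O2 cells and 229 ± 12.9 CPM in controls (n = 3 each), a log2 fold change of −0.42 (SE 0.11, 95% interval −0.68 to −0.16). Its adjusted p was 0.110 in edgeR without a replicate block. With the replicate number as a block it was called lower (log2 fold change −0.42, adjusted p = 0.00311), where 12.8% of all genes were called lower and 8.99% higher. The block called 1 subunit lower and 0 higher. DESeq2 called IntS1 as well (−0.44, adjusted p = 0.00995). IntS6 was lower than IntS1 without H2O2 replicate 3 (−0.51 for IntS6, −0.46 for IntS1) and without control replicate 1 (−0.50 for IntS6, −0.47 for IntS1).

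IntS1 also has the longest transcript of the 10, and fold changes over the whole transcriptome were lower at greater length. Genes of at least 5 CPM were read by length. The median log2 fold change was 0.16 for the 1130 genes of up to 1000 nt. It was −0.15 for the 810 genes over 3000 and up to 4000 nt, and −0.29 for the 917 genes over 4000 and up to 8000 nt, of which 94.5% were below 0. In the range over 4000 and up to 8000 nt, 18.1% of the other genes had a log2 fold change below that of IntS1. With the trend of log2 CPM on length removed from each library, IntS1 had −0.055 (adjusted p = 0.9998), and with the block as well −0.057 (adjusted p = 0.657). The trend was fitted to these same libraries without regard to group. Its removal therefore also takes out any difference between the groups that goes with length.

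IntS6 had the second lowest fold change and the second longest transcript, at 5701 nt. Its level was 108, 102 and 142 CPM in H2O2 replicates 1, 2 and 3, against 116, 166 and 165 CPM in control replicates 1, 2 and 3. H2O2 replicate 3 lay above control replicate 1, so the groups overlapped. The log2 fold change was −0.35 (SE 0.19, 95% interval −0.80 to 0.10, adjusted p = 0.521 in edgeR), and with the block the adjusted p was 0.0638. With block and length trend removed it was −0.018. The abundance-weighted length over its 5 transcripts was 5708, 5675 and 5688 nt in H2O2 replicates 1, 2 and 3, and 5736, 5719 and 5679 nt in the control replicates. These lengths overlapped between the groups.

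IntS4 differed in the other direction. Its level was 53.1, 51.4 and 44.2 CPM in H2O2 replicates 1, 2 and 3, against 40.9, 43.5 and 44.6 CPM in control replicates 1, 2 and 3. H2O2 replicate 3 lay just under control replicate 3, so the groups overlapped. The log2 fold change was 0.21 (SE 0.11, 95% interval −0.059 to 0.47, adjusted p = 0.515 in edgeR), and with the block the adjusted p was 0.104. At 3466 nt, it had a higher fold change than 97.0% of the 809 other genes in the range over 3000 and up to 4000 nt, and 24 of them were higher. With the length trend removed the log2 fold change was 0.36 without the block (adjusted p = 0.241) and 0.36 with it, where IntS4 was called higher (adjusted p = 0.0459). In that fit 6.11% of all genes were called higher and 1.32% lower, and 0 subunits were lower. With the length trend removed but no block, 0 subunits were called, against 2.29% of all genes higher and 0.101% lower.

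The catalytic pair was not called in any fit. IntS11 had 276, 215 and 204 CPM in H2O2 replicates 1, 2 and 3, against 255, 211 and 210 CPM in control replicates 1, 2 and 3. Replicate 1 was the highest library in both groups, and the groups overlapped throughout. The log2 fold change was 0.040 (SE 0.15, 95% interval −0.32 to 0.41, adjusted p = 0.966 in edgeR). IntS9 had 31.7, 26.7 and 26.2 CPM in the H2O2 replicates and 30.1, 25.3 and 26.4 CPM in the control replicates, again highest in replicate 1. Its log2 fold change was 0.050 (SE 0.13, 95% interval −0.25 to 0.35, adjusted p = 0.944).

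Of the scaffold and phosphatase subunits, IntS2 had 87.6, 71.8 and 82.7 CPM in H2O2 replicates 1, 2 and 3, against 90.5, 85.3 and 97.8 CPM in the control replicates, with a log2 fold change of −0.18 (95% interval −0.45 to 0.10, adjusted p = 0.639 in edgeR). H2O2 replicate 1 lay above control replicate 2, so the groups overlapped in CPM, although they were apart in TPM. IntS7 (−0.036, 95% interval −0.27 to 0.20) and IntS8 (−0.051, 95% interval −0.27 to 0.17) also overlapped. IntS8 varied least between replicates of all 10, with an SD of 3.48% of the mean CPM in H2O2 libraries and 1.22% in controls. For IntS7 the SD was 4.996% in H2O2 libraries and 2.13% in controls. IntS8 was also apart in TPM, at 12.3 to 14.0 TPM in H2O2 libraries and 14.2 to 15.1 TPM in controls, but not in CPM. The share of all genes apart in TPM was not counted. In limma on log2(TPM + 1), the median log2 fold change over all tested genes was −0.056, against 0.025 in edgeR on counts.

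IntS3 was the other subunit besides IntS1 whose groups were apart in CPM, at 121, 120 and 131 CPM in H2O2 replicates 1, 2 and 3, against 136, 131 and 135 CPM in control replicates 1, 2 and 3. The nearest values, H2O2 replicate 3 and control replicate 2, were 131.21 and 131.24 CPM. The log2 fold change was −0.12 (95% interval −0.35 to 0.11, adjusted p = 0.747 in edgeR), and the sign turned to 0.029 with block plus length-trend removal. IntS12 had 20.8, 13.9 and 15.6 CPM in the H2O2 replicates and 19.2, 13.7 and 16.1 CPM in the control replicates. Its groups overlapped, and the log2 fold change was 0.039 (95% interval −0.42 to 0.50, adjusted p = 0.975).

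**Figure D2:**
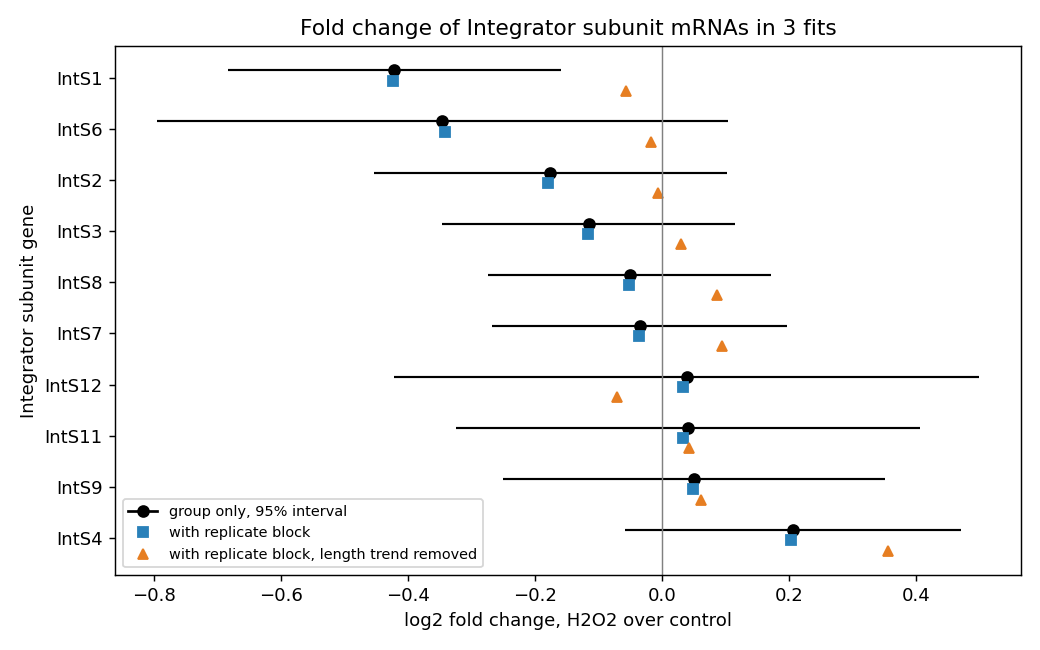
Log2 fold change, H2O2 over control, of each subunit in the fit with group only (black, 95% interval), with the replicate block (blue), and with block plus length-trend removal (orange). Only the interval of IntS1 lies wholly on one side of 0 in the first fit, and its value moves from −0.42 to −0.057 in the third.

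Longer subunit transcripts had lower fold changes. Over the 10 genes, Pearson's r between log2 length and log2 fold change was −0.72 and Spearman's rho was −0.70, where all points share the same 6 libraries. With the length trend removed r was 0.034, and the subunits then had 6 values above 0 and a median of 0.038, against 0.014 over all genes. That trend was fitted to these same libraries, so a weaker r is largely set in advance by its removal. The slope of log2 CPM on log2 length was 0.330 to 0.425 in H2O2 libraries and 0.458 to 0.574 in controls. The part of fragment length or RNA integrity in this trend was not tested.

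**Figure D3:**
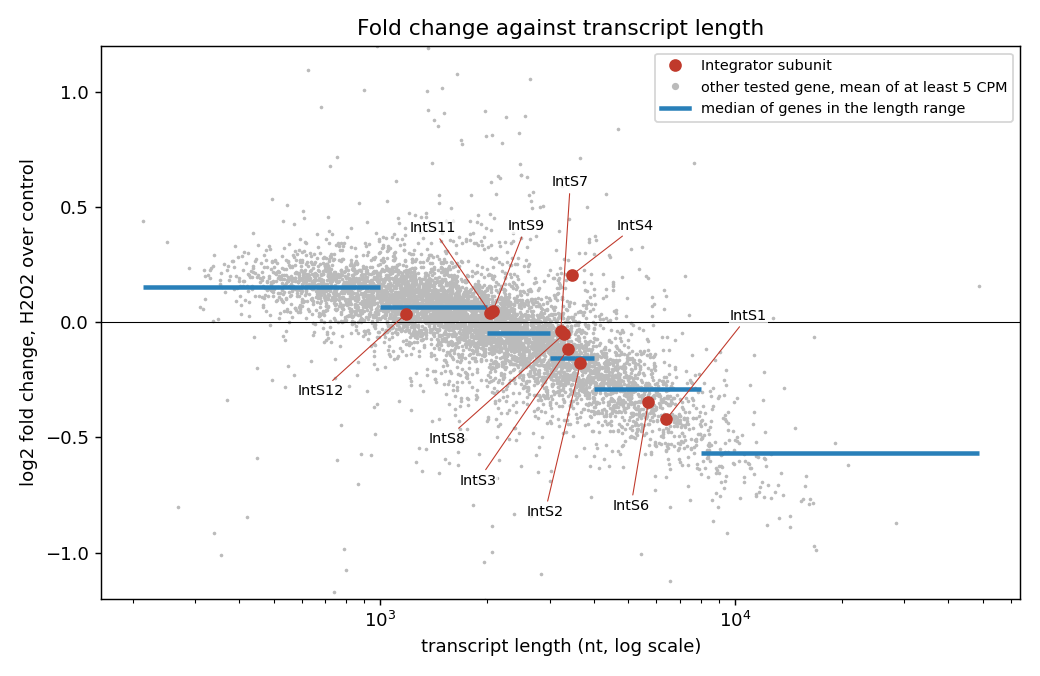
Log2 fold change against transcript length (nt, log scale) for the 6884 genes averaging 5 CPM or more. The 10 Integrator subunits are red, other genes grey, and blue lines give the median of each length range, while 33 of 6884 genes lie beyond ±1.2 and are not drawn. IntS1 and IntS6 lie among other long transcripts, and IntS4 lies above most genes of its length.

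Same-numbered libraries of the groups deviated together, so differences within each number were read as well. In replicate numbers 1 and 2, 6 of 10 subunits were lower in the H2O2 library than in its control, and in number 3 all 10 were. Over all tested genes 45.8%, 47.4% and 48.1% were lower in numbers 1, 2 and 3. IntS1, IntS2, IntS3, IntS6, IntS7 and IntS8 were lower in all 3 numbers, and 0 subunits were higher in all 3, where 26.7% of all genes were lower in all 3 and 30.3% higher. IntS2, IntS3, IntS7 and IntS8 lie in the range over 3000 and up to 4000 nt. Of genes there with at least 5 CPM, 85.2% had a log2 fold change below 0 in the fit on group alone. In the range of IntS1 and IntS6, over 4000 and up to 8000 nt, 94.5% did. Signs within numbers were not counted by length. For IntS1 the difference in log2 CPM was −0.25, −0.60 and −0.42 in numbers 1, 2 and 3. For IntS6 it was −0.10, −0.70 and −0.22, so number 2 held most of it. For IntS4 it was 0.37, 0.24 and −0.011, so number 3 showed none of it. The median difference over the 10 subunits was −0.0092, −0.081 and −0.045.

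**Figure D4:**
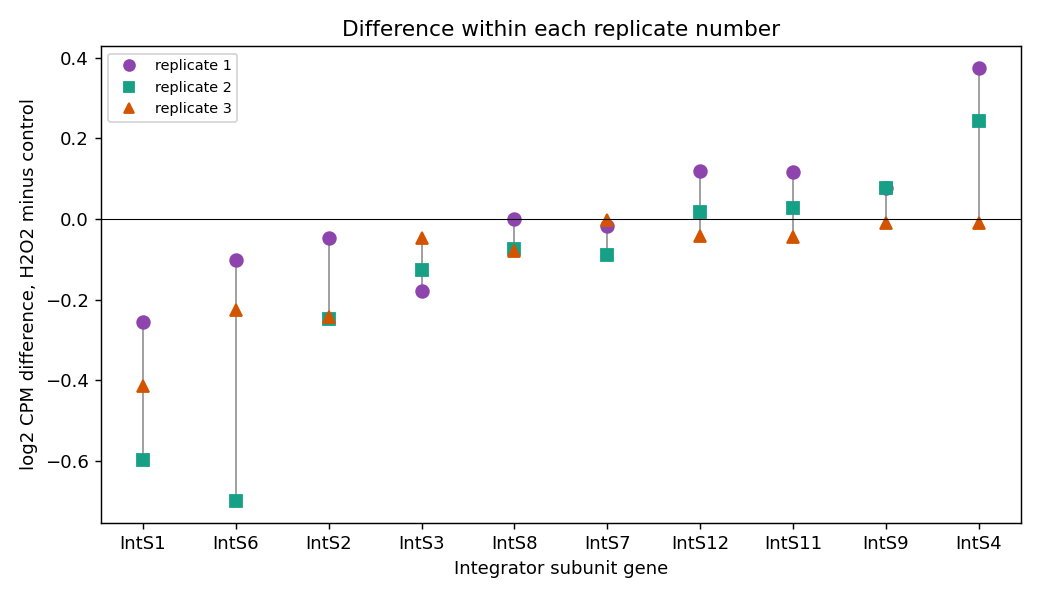
Difference in log2 CPM, H2O2 minus control, within each replicate number for the 10 subunits, ordered by fold change. All 3 points of IntS1 lie at or below −0.25, while IntS6 ranges from −0.70 to −0.10 and IntS4 from −0.011 to 0.37.

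Several of these genes overlap a neighbour on the opposite strand. The library kit was stranded, but the sources used here do not give the strand setting of the counting. How reads of such pairs were assigned is therefore not known from those sources. IntS11 shares 668 nt of exon with the antisense gene asRNA:CR46109, which averaged 0.690 TPM and had a log2 fold change of 1.48 (adjusted p = 0.127, 0.0130 with the block). IntS8 shares 80 nt with the flap endonuclease gene Fen1, IntS9 51 nt with the mitochondrial isoleucyl-tRNA synthetase gene IleRS-m, and IntS1 6 nt with the cofilin gene tsr, which averaged 5019 TPM. The log2 fold changes were 0.033 for Fen1, −0.32 for IleRS-m (adjusted p = 0.705, 0.0183 with the block) and 0.15 for tsr. In RSEM's posterior sampling, the SD of the count was 0 for all 10 subunits in every library, so its draws gave them the same count each time. Their expected counts were also whole numbers, so no read was divided between a subunit and a neighbour in these counts. A tested downstream neighbour on the same strand lay within 5000 nt for 7 subunits. For IntS2 that neighbour is RhoGAPp190, 198 nt away, with a log2 fold change of −0.54 (adjusted p = 0.0789), and for IntS7 it is Naa60, 188 nt away, with 0.11 (adjusted p = 0.818). Among the 7, edgeR called 0 higher and 0 lower without the block, and with it 0 higher and 2 lower, RhoGAPp190 and yata, which lies 1705 nt after IntS11, where 12.8% of all genes were called lower.

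Among the rest of the complex, 0 of the 5 further genes listed were called in either direction by edgeR or DESeq2. At an unadjusted p under 0.05 in edgeR, 0 of these 5 differed, against 1256 of all 8955 tested genes. The fold changes were −0.12 for omd (IntS5), −0.062 for IntS10, 0.089 for asun (IntS13) and 0.064 for IntS14. The fifth, CG5274, which the annotation does not name as a subunit, had 0.079. Levels were lowest for asun, at 5.89 ± 0.926 TPM in H2O2 cells and 5.89 ± 0.966 TPM in controls (n = 3 each). The phosphatase 2A genes mts (catalytic subunit, log2 fold change −0.024) and Pp2A-29B (scaffold subunit, 0.0095) were not called either. Both stood above every Integrator subunit in mean TPM, the nearest being IntS11 at 130 TPM in H2O2 cells and 135 TPM in controls. The level of mts was 189 ± 7.71 TPM in H2O2 cells and 203 ± 4.12 TPM in controls, and that of Pp2A-29B was 236 ± 9.85 TPM in H2O2 cells and 250 ± 17.6 TPM in controls. The groups of mts were apart in TPM, where the share of all genes apart was not counted, but overlapped in CPM. Both act in many complexes outside Integrator.

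Genes of connected steps in transcription were read from the same fit. Without the block edgeR called 0 genes in either direction among 9 pausing and elongation genes, 14 cleavage and polyadenylation genes, 3 SNAPc genes, 11 nuclear exosome genes, 29 Mediator genes and 12 RNA polymerase II genes. At an unadjusted p under 0.05, 3, 0, 0, 0, 5 and 2 of them were lower and 0 higher in each list. Of all 8955 tested genes, 646 (7.21%) were lower and 610 higher at that threshold. DESeq2 called 1 pausing, 3 Mediator and 2 polymerase genes lower and 0 in the other lists, where 2.85% of all genes were lower. With the block, edgeR called 3 pausing, 1 cleavage, 0 SNAPc, 2 exosome, 6 Mediator and 2 polymerase genes lower, and 1 Mediator gene higher, where 12.8% of all genes were lower and 8.99% higher. With block and length trend removed, 0 were called in each of these lists, where 1.32% of all genes were lower and 6.11% higher.

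Among the genes called lower with the block, some had lower fold changes than any Integrator subunit, and those given here were picked after their values were seen. Fold changes are from the fit on group alone. For CycT, the cyclin of the elongation kinase P-TEFb, the log2 fold change was −0.57 (block adjusted p = 0.000546), and for Polr2A, the largest polymerase subunit gene, −0.43 (block adjusted p = 0.00146). The Mediator genes MED23 and skd had −0.47 and −0.44 (block adjusted p = 0.00136 and 0.00177). These 4 transcripts measured 5561, 6736, 4682 and 11241 nt, and with block plus length-trend removal the values were −0.26, −0.050, −0.22 and 0.13.

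The 2 most abundant members of each list were not called by edgeR without the block. For spt4, a subunit of the elongation factor DSIF, the log2 fold change was 0.19 (95% interval −0.17 to 0.56), and for TH1, a subunit of the pausing factor NELF, it was −0.017 (95% interval −0.28 to 0.24). The cleavage factor genes Cpsf6 and Cpsf5 had −0.00026 and 0.016. Pbp49 and Pbp45, of the snRNA promoter-binding complex SNAPc, had −0.10 and 0.29, the exosome genes Csl4 and Rrp40 0.089 and 0.076, the Mediator genes MED15 and MED30 −0.078 and 0.10, and the polymerase genes Polr2K and Polr2L 0.17 and 0.074. The median log2 fold change was −0.043 over the 10 Integrator subunits, beside 0.085 over the Mediator genes and −0.028 over the cleavage and polyadenylation genes. The median transcript length was 3338 nt for Integrator, 1142 nt for Mediator and 2515 nt for cleavage and polyadenylation genes. With the length trend removed the medians were 0.038, 0.0061 and 0.019. Differences between these lists were not tested.

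Among mRNAs known in Drosophila cells as targets of premature termination by Integrator, 0 of 6 were called by edgeR without the block. That fit called 2.57% of all genes higher and 0.57% lower. At an unadjusted p under 0.05, 1 of the 6 was higher and 2 were lower, against 610 and 646 of all 8955 tested genes. The block gave 2 higher and 3 lower calls, where 8.99% of all genes were higher and 12.8% lower. DESeq2 gave 0 and 1, where 3.69% were higher and 2.85% lower. The block plus length-trend removal gave 1 and 1, where 6.11% were higher and 1.32% lower. The 2 called in that last fit were Sirup, with a log2 fold change of 0.68 (adjusted p = 0.0181), and CG8620, with −0.70 (adjusted p = 0.0358). Hml, the hemolectin gene and also a hemocyte marker, had 259, 290 and 310 TPM in H2O2 replicates 1, 2 and 3, against 395, 553 and 551 TPM in control replicates 1, 2 and 3. Its groups were apart, and its log2 fold change was −0.72 (adjusted p = 0.0817 in edgeR, 0.000195 with the block), and −0.11 with block and length trend removed. The metallothionein gene MtnA had 253, 280 and 367 TPM in the H2O2 replicates, against 231, 245 and 323 TPM in the control replicates. Its groups overlapped, and its log2 fold change was 0.29 (adjusted p = 0.573, 0.0146 with the block), and 0.087 with block plus length-trend removal, where it was not called (adjusted p = 0.492). Small nuclear RNA genes were not analysed here.

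Some pairs of subunits varied together and others in opposite directions. Over the 45 pairs of subunits, Pearson's r of log2 CPM across the 6 libraries ran from −0.95 to 0.97 with a median of 0.42. These values include the difference between the groups, and pairs of other genes were not read. Among 6874 other genes of at least 5 CPM, those whose log2 CPM ran closest to the subunits' mean standardized profile over the 6 libraries were pcm (r = 0.992), an exoribonuclease gene, PolG1 (r = 0.991), a mitochondrial DNA polymerase gene, and Karybeta3 (r = 0.989), an importin gene. Their log2 fold changes were −0.22, −0.097 and −0.22, and none was called by edgeR without the block. These r values were picked as the highest of 6874 over only 6 libraries, and they too include the difference between the groups.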

How the data were processed

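Poly(A) RNA from 6 libraries was sequenced after stranded library preparation, per the labels' protocols. The submitters' processing notes name STAR 2.4.0j, RSEM 1.2.21 and build dm6. The annotation release and strand setting used are not given in the sources used here. The deposited tables hold, per the file headers, the authors' expected counts, TPM values, abundance-weighted lengths and posterior SDs. Symbols and positions came from Ensembl release 115 (BDGP6.54, the dm6 assembly): 16419 genes matched by ID and 28 by transcript ID.

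Expected counts were rounded and fitted in edgeR 4.0.16 (R 4.3.3) with filterByExpr, TMM scaling and a robust two-sided quasi-likelihood F test on group. SEs were derived as |log2 fold change| over √F. Alternatives used DESeq2 1.42.0, limma 3.58.1 on log2(TPM + 1) and log2(TPM + 0.1), other filters, a replicate block, removal of a lowess trend of log2 CPM on length, and leaving out each library. Deviations from group means correlated at 0.717, 0.518 and 0.601 for same-numbered libraries 1, 2 and 3, so the numbers were read as pairing them; the labels give only the shared numbers. No libraries were duplicates (chi-square per degree of freedom 48.7 to 229 over 15 pairs). Fits were tested on simulated counts.

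The subunits and gene lists were chosen with earlier results of these data known. Named genes were all subunits and phosphatase 2A genes; from each other list up to 2 called members with the smallest p or else the 2 highest in TPM; and the 3 genes most like the subunits' mean profile. Cpsf73, Cpsf100, marker genes named singly, neighbours, CycT, Polr2A, MED23, skd, Sirup and CG8620 were chosen after their values were seen.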

Additional observations from a re-analysis of the deposited data

How the results depend on the processing

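The lowest count of any subunit in a library was 520 expected counts. Subunits called lower were 1 by DESeq2, 1 with the replicate block (IntS1 in both) and 0 in the other alternatives, including each fit that left out a library. Subunits called higher were 1 (IntS4) with the replicate block and length trend removed, and 0 in the others. The subunits' median log2 fold change was 0.038 with the length trend removed, 0.036 with the replicate block as well, −0.13 in limma on log2(TPM + 1) with or without the filter, −0.13 on log2(TPM + 0.1), and −0.10 to −0.019 when one library was left out. Over all genes the median was also lower in limma than the 0.025 of the main fit. It was −0.056 on log2(TPM + 1) with the filter, −0.0095 without it, and −0.068 on log2(TPM + 0.1).

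Over all genes, 51 were called lower and 230 higher. Lower and higher calls were 322 and 416 by DESeq2, 16 and 60 with at least 50 counts in 3 libraries, 1142 and 805 with the replicate block, and 118 and 547 with block and length trend removed. Lower calls were 9 with the length trend removed alone and 80 on log2(TPM + 0.1). Leaving out one library gave 0 to 20 lower and 0 to 134 higher calls. Both were 0 without H2O2 replicate 2, control replicate 2 or control replicate 3, and unadjusted p-values under 0.05 then numbered 891, 1054 and 1054. Lower and higher calls were 20 and 134 when H2O2 replicate 1 was left out, 4 and 109 for H2O2 replicate 3, and 14 and 77 for control replicate 1.

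IntS1 kept its direction in all 16 alternatives (−0.51 to −0.055), as did IntS2 (−0.27 to −0.0059), IntS6 (−0.51 to −0.018) and IntS4 (0.10 to 0.36). Subunits near 0 changed sign, none of them called. With the length trend removed, without and with the block, IntS3 had 0.028 and 0.029, IntS7 0.095 and 0.095, IntS8 0.086 and 0.086, and IntS12 −0.066 and −0.071. On log2(TPM + 1), with or without the filter, and on log2(TPM + 0.1), IntS9 had −0.042 and −0.044, IntS11 −0.060 and −0.060, and IntS12 −0.062 and −0.066. Without H2O2 replicate 1, IntS9 had −0.046, IntS11 −0.11 and IntS12 −0.15; without control replicate 2 they had −0.0063, −0.0083 and −0.076; and without control replicate 3 IntS11 had −0.015. Leaving out one library gave IntS9 −0.046 to 0.12, IntS11 −0.11 to 0.13 and IntS12 −0.15 to 0.17. The cause was not tested.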
